A study of Mus musculus with 4 samples.

Results

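The enzymes of glycolysis, of the pyruvate branch point and of the tricarboxylic acid (TCA) cycle, together with the creatine kinases, were read out here by ribosome footprints at their translation start sites. Members were chosen by a rule on gene symbols that uses no measured value, but with earlier results of these data known. Of the 6352 transcripts in the table, 41 carried such a symbol. Of the 42 symbols listed by role, Suclg2 (a beta subunit of succinyl-CoA ligase) was the 1 with no transcript in the table. The members' 3 symbols Pdhb, Suclg1 and Pfkp were read from misprinted forms in the list of names, each 1 letter away from a single known coding symbol.

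The libraries came from primary cultured mouse cortical neurons, either wild type (WT) or lacking Ltn1 (KO), an E3 ligase of ribosome-associated quality control, each with scrambled RNAi or RNAi against Ttc3, another E3 ligase. All cultures received harringtonine at 5 µg/ml for 3 min, a drug that holds newly joined ribosomes at start codons, so the reads stand mainly for initiating ribosomes. Each combination had 1 library, and the 4 libraries are named WT SC, KO SC, WT TTC and KO TTC by genotype and code. By their titles and characteristics the TTC libraries had scrambled RNAi and the SC libraries Ttc3 RNAi, but the code letters read the other way round, so the 2 codes are compared below without a direction of RNAi. The study asked whether initiation was altered by loss of LTN1 and whether lowering TTC3 altered it again. The age and allele of the mice and the days in culture are not given in the sources used here.

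Glycolysis splits glucose into trioses and then pyruvate in the cytosol, yielding some ATP and NADH. Pyruvate is either reduced to lactate or passed by the pyruvate dehydrogenase complex into the mitochondrial TCA cycle, which feeds electrons to respiration. Neurons rely mainly on oxidative metabolism, while astrocytes are known for strong glycolysis, and several steps have isoenzymes that differ between these cell types.

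The libraries held 1460425 to 3655827 reads in all, and the deposited start sites took up 6.06% to 6.85% of them. Levels are reads scaled to the whole library (RPM, reads per 1e6 reads), 1 value per start site, so no transcript length enters a comparison between genes. A single read was worth 0.274 to 0.685 RPM. With 1 library per group there was no replicate check: each test below is a two-sided exact binomial test on the reads of 2 libraries, adjusted by Benjamini-Hochberg over all transcripts with reads, and it compares those libraries, not the conditions. Messenger RNA was not measured beside the footprints, so more initiation per message and more message cannot be told apart. A difference is called at an adjusted p under 0.05. Over transcripts with at least 20 reads in the 2 libraries compared, the squared deviation averaged 3.17 to 5.12 times that of counting error. Among the members it averaged 4.37 to 7.85 times. The libraries compared differ in genotype or code, so these values hold true differences as well as added scatter, which cannot be told apart. The p-values and intervals cover counting error only, so for the conditions the p-values are too small and the intervals too narrow. An edgeR fit of genotype and code over the 4 libraries, which had 1 residual degree of freedom, called 0 of 2808 transcripts for either term with whole-library totals (smallest adjusted p = 0.691 for genotype and 0.27 for code) and with TMM factors (0.668 and 0.245). At an unadjusted p of 0.05, that fit had 133 transcripts lower and 60 higher in KO with whole-library totals, against 97 lower and 104 higher with TMM. For code it had 129 lower and 282 higher in TTC with whole-library totals, against 186 lower and 207 higher with TMM, so both splits depended on the scaling. Among the 34 members it tested, 4 were lower and 1 higher in KO at that level with whole-library totals, and 3 and 1 with TMM. For code, 1 member was lower and 5 higher in TTC with whole-library totals, and 4 and 3 with TMM.

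The targeted genes did not follow the labels throughout. Ltn1 had 10 reads in WT SC and 37 in the library labelled KO SC, whereas WT TTC had 2 and KO TTC 0. The part of Ltn1 that was deleted is not given, so a read at its start site does not check the genotype, and every direction between KO SC and WT SC below rests on the labels. Ttc3 had 3, 2, 0 and 0 reads in WT SC, KO SC, WT TTC and KO TTC, too few to check the RNAi. All 15 neuronal markers looked for were in the table, led by Tubb3 at 1043 to 1278 RPM. Their sum was 1990, 2273, 1984 and 2167 RPM in WT SC, KO SC, WT TTC and KO TTC. Of 9 astrocyte markers 8 were in the table, summing to 238.5, 178.8, 286.2 and 228.7 RPM in that order, Aldoc included. Of 9 oligodendrocyte lineage markers 6 were in the table, at 37.7, 12, 66.4 and 39.7 RPM in sum, with Mbp at 0 in KO SC alone. Of 8 microglial markers 1 was in the table.

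The energy enzymes were among the better covered transcripts. Their median level was 15.7, 13.8, 13.7 and 17.8 RPM in WT SC, KO SC, WT TTC and KO TTC, against medians of 2.62 to 3.01 RPM over all transcripts. Their summed level was 1349, 1178, 1568 and 1372 RPM in the same order, which is 2.11%, 1.95%, 2.29% and 2.05% of the listed reads. Thus both KO libraries held a smaller share than the WT library of their pair. A mean of at least 5 RPM was reached by 33 of the 41 members and by 2314 of all transcripts.

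**Figure D1:**
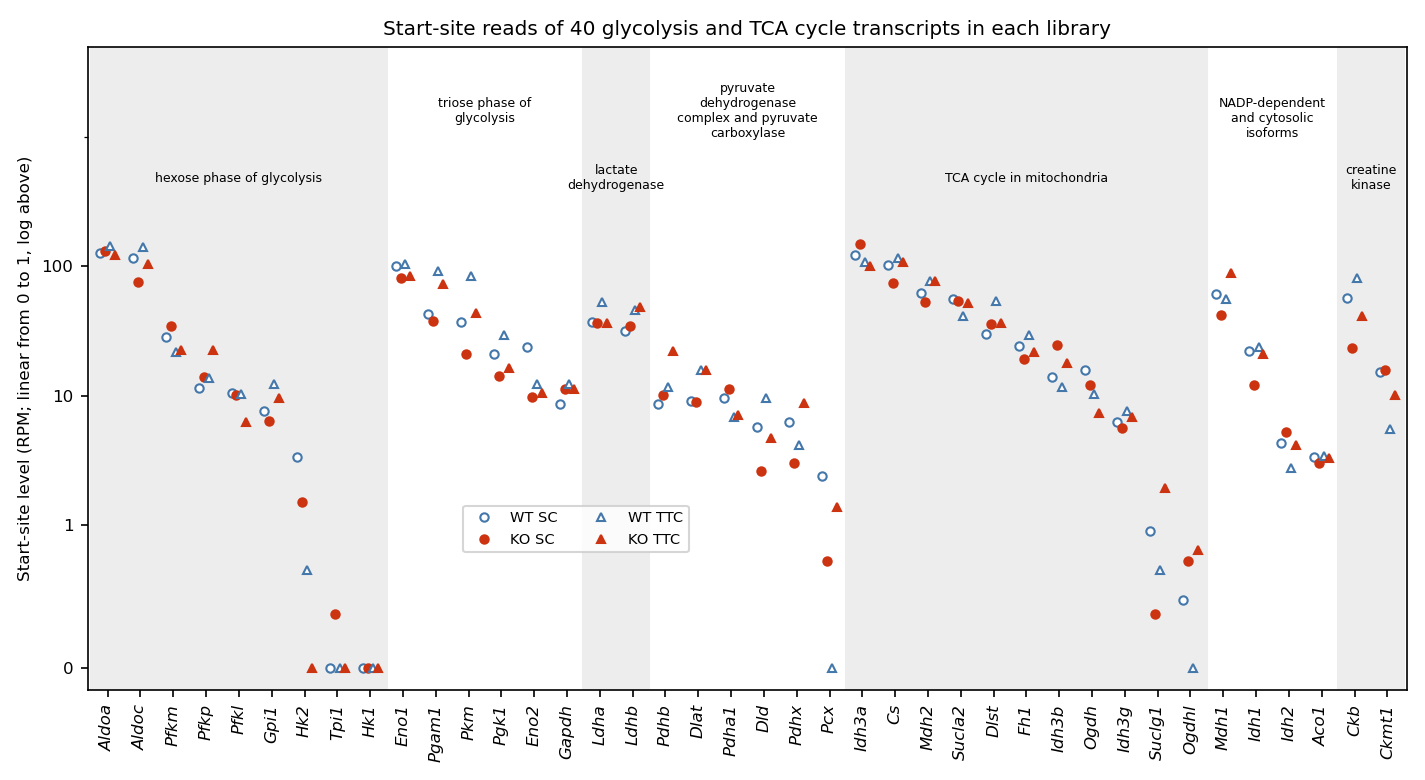
Level at the start site in RPM (vertical axis, linear from 0 to 1 and logarithmic above) of 40 of the 41 transcripts, grouped by role and ordered by mean level. Open blue symbols are WT, filled red symbols KO, circles the SC libraries and triangles the TTC libraries. The bulk lies between 5 and 150 RPM, and Hk1 and Tpi1 lie at or next to 0.

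In the SC pair, 5 members were called lower in KO (Aldoc, Ckb, Cs, Eno2 and Pkm) and 0 higher, where the table as a whole had 4.74% of 5355 tested transcripts lower and 2.63% higher. In the TTC pair, 3 members were called lower in KO (Aldoc, Ckb and Pkm) and 1 higher (Mdh1), beside 4.41% of 5448 tested transcripts lower and 3.14% higher. Well covered transcripts are called more often: at a mean of at least 5 RPM, 6.91% of all transcripts were called lower in the SC pair and 5.49% in the other, beside 15.2% and 9.09% of the 33 members. This cut did not match depth: over the libraries, median levels were 20.95 to 29.44 RPM for these members and 10.85 to 13.01 RPM for all transcripts. Deeper coverage of the members can therefore contribute to their larger shares here and in the comparisons at this cut below. Counting direction alone, KO SC lay below WT SC for 26 members and above it for 14, and KO TTC lay below WT TTC for 23 and above it for 16. Scaled to the listed sites or by median-of-ratios, the first split became 22 below and 18 above, and the second did not change. Among transcripts of at least 5 RPM, KO SC was the lower library for 66.7% of the members and 58.0% of all. For KO TTC these shares were 63.6% and 54.1%. The median log2 difference (with 1 RPM added) was -0.12 in both pairs, beside 0 for all transcripts. At 5 RPM and above the medians were -0.15 and -0.16 for the members and -0.11 and -0.05 for all transcripts. Median-of-ratios scaling moved the SC pair median of these transcripts to 0.02 and that of the 41 members to -0.01, and turned the split of calls over the whole table from 254 lower and 141 higher to 178 lower and 200 higher. Under it, 3 members were called lower (Aldoc, Ckb and Eno2) and 2 higher (Idh3a and Idh3b).

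The members called lower in KO in both pairs were Pkm, Ckb and Aldoc. They were picked by these calls, so their shared direction is no further result. The 250 bases before their annotated start are shown (RefSeq, GRCm38.p6, each written 5′ to 3′ on the gene's own strand). Pkm and Aldoc each have 2 promoter entries, of which the 1 at the annotated start of the gene is shown. Capitals mark matches on either strand to the hypoxia response core (ACGTG or GCGTG), the GC box (GGGCGG) or the TATA box (TATAAA), none of which overlapped here. Pkm lies at chr9:59656326-59656575 on the + strand, Ckb at chr12:111672339-111672588 on the - strand and Aldoc at chr11:78322823-78323072 on the + strand.
Pkm: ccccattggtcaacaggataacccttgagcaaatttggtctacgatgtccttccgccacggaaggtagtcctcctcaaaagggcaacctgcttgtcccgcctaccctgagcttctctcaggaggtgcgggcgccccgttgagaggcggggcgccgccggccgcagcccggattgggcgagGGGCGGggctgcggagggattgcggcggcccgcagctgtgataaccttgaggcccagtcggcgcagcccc
Ckb: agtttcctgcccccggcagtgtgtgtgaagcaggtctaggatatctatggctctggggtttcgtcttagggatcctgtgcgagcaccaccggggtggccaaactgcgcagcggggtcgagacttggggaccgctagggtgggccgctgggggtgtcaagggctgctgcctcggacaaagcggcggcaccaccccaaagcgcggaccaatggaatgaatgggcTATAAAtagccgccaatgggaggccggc
Aldoc: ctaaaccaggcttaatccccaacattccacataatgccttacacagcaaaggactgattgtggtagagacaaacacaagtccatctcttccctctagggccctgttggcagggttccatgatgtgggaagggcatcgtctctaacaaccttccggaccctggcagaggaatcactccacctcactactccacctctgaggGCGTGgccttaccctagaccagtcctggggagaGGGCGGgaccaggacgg
The core matched 1 time, in Aldoc, whereas the GC box matched 1 time in Pkm and 1 time in Aldoc, and the TATA box 1 time in Ckb, 23 bases before the start. Among all 32851 promoter windows of this length, 38.6% held the core, 32.7% the GC box and 12.4% the TATA box. These are letter matches, and no factor was measured.

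Pkm (chr9:59656576-59679372) encodes pyruvate kinase, the last step of glycolysis, which makes pyruvate and ATP. Its start site had 37.2, 20.9, 83.5 and 43.2 RPM in WT SC, KO SC, WT TTC and KO TTC. KO was the lower library in each pair, and TTC the higher library within each genotype. The KO over WT ratio was 0.563 in the SC pair (exact 95% interval 0.392 to 0.804; exact adjusted p = 0.023) and 0.517 in the TTC pair (0.406 to 0.661; exact adjusted p = 1.2e-05). The TTC over SC ratio was 2.06 in KO (1.51 to 2.85; exact adjusted p = 4.9e-05) and 2.24 in WT (1.68 to 3.02; exact adjusted p = 2.7e-06). Since KO TTC was higher than WT SC, the KO and WT libraries of Pkm overlapped as groups. With median-of-ratios scaling the SC pair call was lost (exact adjusted p = 0.0808). Processed copies of Pkm exist in the genome, and how reads that match them were placed is not given.

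Ckb (chr12:111669355-111672338) encodes the brain-type cytosolic creatine kinase, which buffers ATP through phosphocreatine. It had 57.2, 23.2, 80.8 and 41.3 RPM in WT SC, KO SC, WT TTC and KO TTC, and both KO libraries lay below both WT libraries. Its ratio of KO to WT was 0.405 in the SC pair (0.293 to 0.555; exact adjusted p = 8.5e-07) and 0.511 in the TTC pair (0.399 to 0.656; exact adjusted p = 1.3e-05), calls that held with both other scalings. TTC exceeded SC by 1.78 times in KO (exact adjusted p = 0.0015), while in WT the ratio of 1.41 was not called (exact adjusted p = 0.069). The mitochondrial creatine kinase Ckmt1 did not follow it: 15.3, 15.7, 5.48 and 10.1 RPM, with no call in any comparison as deposited. Between the WT libraries its TTC over SC ratio of 0.359 (0.143 to 0.795; exact adjusted p = 0.055) was called with each other scaling or filter (exact adjusted p = 0.0383 to 0.0402). The share of Ckb among the reads of both was 78.9% in WT SC (exact 95% interval 71.6% to 85.1%) and 59.6% in KO SC (49.5% to 69.1%), and 93.7% in WT TTC (87.9% to 97.2%) and 80.3% in KO TTC (73.9% to 85.7%). This share needs no scaling between libraries, and it was smaller in the KO library of each pair by more than the counting intervals.

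Aldoc (chr11:78323073-78327781) encodes aldolase C, the brain aldolase that splits fructose-1,6-bisphosphate and is widely used as an astrocyte marker. Levels were 115.4, 75.2, 141.7 and 103.9 RPM in WT SC, KO SC, WT TTC and KO TTC, again with both KO libraries below both WT libraries. The ratio of KO to WT was 0.651 in the SC pair (0.537 to 0.789; exact adjusted p = 0.000505) and 0.733 in the TTC pair (0.617 to 0.873; exact adjusted p = 0.011). Aldoa (aldolase A, the ubiquitous form) had 126.9, 130.6, 144.5 and 122.5 RPM, with KO over WT ratios of 1.03 (0.875 to 1.21) and 0.848 (0.719 to 1.00), neither called. Aldoc made up 47.6% of aldolase reads in WT SC and 36.5% of those in KO SC, with intervals that did not meet (43.2% to 52.1% and 32.5% to 40.7%). In the TTC pair the shares were 49.5% and 45.9%, with intervals that overlapped (44.6% to 54.4% and 42.5% to 49.4%). Other astrocyte markers stood beside these differences. Gfap had 18.1, 1.87, 19.2 and 7.11 RPM, Slc1a2 42.9, 23.2, 49.3 and 44.9 RPM, and Aldh1l1 9.54, 5.24, 7.53 and 5.74 RPM in WT SC, KO SC, WT TTC and KO TTC, whereas Glul, at 46.8, 65.8, 56.8 and 55.5 RPM, was the highest in KO SC. Slc1a3 had 5.72, 6.36, 7.53 and 7.11 RPM, with KO SC above WT SC. Of these 5 markers, Gfap was called lower in KO in both pairs (exact adjusted p = 6.4e-07 and 0.0107) and Slc1a2 in the SC pair (exact adjusted p = 0.0065) but not in the TTC pair (exact adjusted p = 0.861). Aldh1l1, Slc1a3 and Glul were not called in either pair (exact adjusted p = 0.347 and 0.797 for Aldh1l1). Aqp4 was at 0 in both SC libraries and Gja1 at 0 in WT SC. In such a bulk culture, fewer cells of a type and less RNA per cell cannot be told apart. The part of these markers' cells in the Aldoc, Ckb and Pkm results was not tested.

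**Figure D2:**
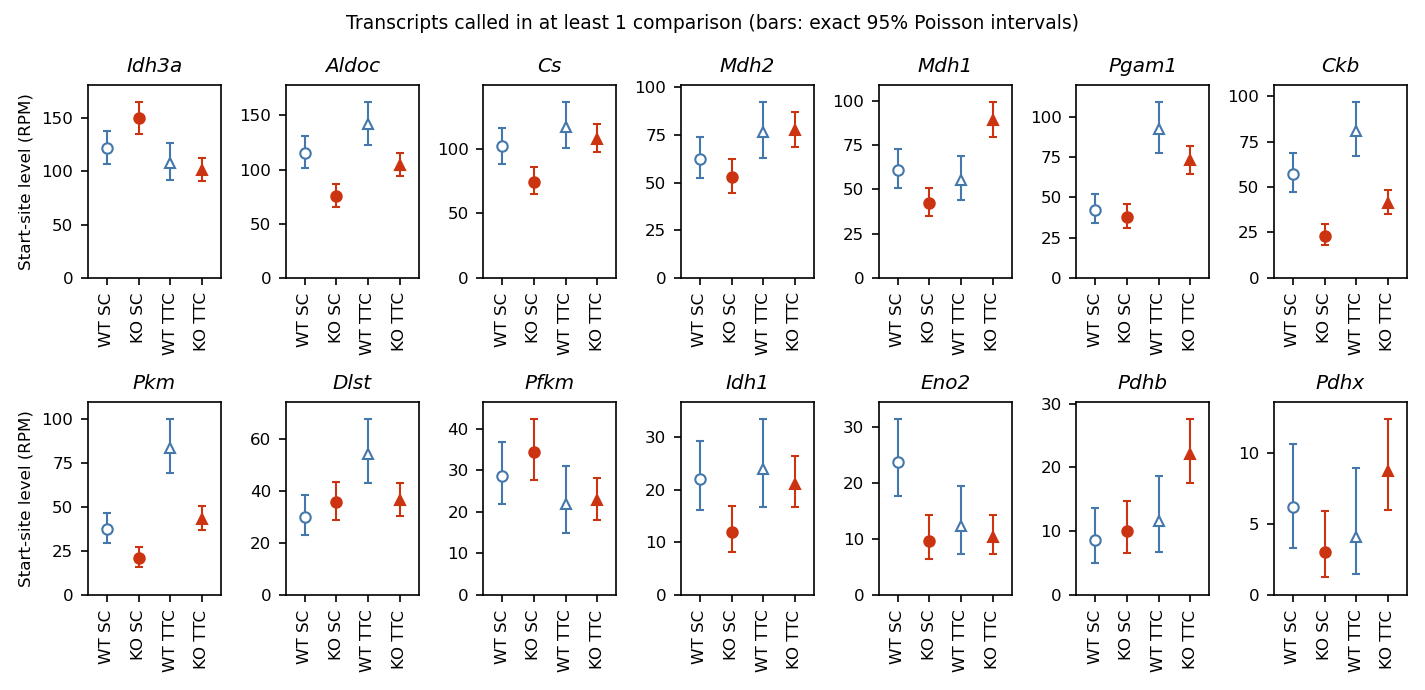
Level at the start site in RPM (vertical axis, from 0) in each of the 4 libraries (horizontal axis) for the 14 transcripts called in at least 1 comparison, ordered by mean level. Points are single libraries, and bars are exact 95% Poisson intervals, which cover counting error only. Ckb, Pkm and Aldoc lie lower in KO in both pairs, and Mdh1 is highest in KO TTC.

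Among the hexose steps, which prime glucose and cut it into trioses, the start sites of the first enzyme were nearly empty. Hk1, the main brain hexokinase, had 0 reads in all 4 libraries, which allows a level of up to 1.43, 1.12, 2.05 and 0.821 RPM in WT SC, KO SC, WT TTC and KO TTC (3 reads each). Hk2 had 7, 4, 1 and 0 reads. Tpi1, which interconverts the trioses, had a single read, in KO SC. The table holds 1 transcript for each gene, and how that transcript was chosen is not given. Gpi1 (glucose-6-phosphate isomerase) had 7.63, 6.36, 12.3 and 9.57 RPM with no call.

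The phosphofructokinase subunits form the committed step. Pfkm (muscle type) had 28.6, 34.4, 21.9 and 22.7 RPM, and was called lower in KO TTC than KO SC (ratio 0.66, 0.484 to 0.897; exact adjusted p = 0.045). Pfkp (platelet type) had 11.4, 13.8, 13.7 and 22.4 RPM and Pfkl (liver type) 10.5, 10.1, 10.3 and 6.29 RPM, with no call in any comparison. Read as shares, Pfkp made up 22.6% (15.1% to 31.8%), 23.7% (17.3% to 31.2%) and 29.9% (19.3% to 42.3%) of phosphofructokinase reads in WT SC, KO SC and WT TTC, and 43.6% (36.4% to 51.0%) in KO TTC. The interval of KO TTC thus lay above those of both SC libraries and met that of WT TTC.

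In the triose phase, which yields the ATP and NADH of glycolysis, KO SC lay below WT SC for 5 of 6 members and KO TTC below WT TTC for 6 of 6, with median log2 differences of -0.42 and -0.33, directions that held under both other scalings. Over all transcripts of at least 5 RPM, KO was the lower library for 58.0% between the SC libraries and 54.1% between the TTC libraries. Gapdh, which oxidises glyceraldehyde-3-phosphate, was the 1 that was not lower in the SC pair, and had 8.59, 11.2, 12.3 and 11.2 RPM. Pgk1 (phosphoglycerate kinase, the first ATP-yielding step) had 21.0, 14.2, 29.4 and 16.4 RPM, both KO libraries below both WT libraries, without a call (exact adjusted p = 0.36 and 0.056; 0.0427 in the TTC pair when tested among transcripts of at least 5 RPM). Pgam1 (phosphoglycerate mutase) separated the codes rather than the genotypes, at 42.5 and 37.8 RPM in the SC libraries against 92.4 and 73.0 RPM in the TTC libraries. Its TTC over SC ratio was 1.93 in KO (1.53 to 2.46; exact adjusted p = 4.2e-07) and 2.18 in WT (1.65 to 2.88; exact adjusted p = 1.3e-06), while its KO over WT ratios of 0.89 and 0.79 were not called.

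The enolases, which make phosphoenolpyruvate, split by form. Eno2, the neuronal enolase, had 23.9, 9.73, 12.3 and 10.4 RPM in WT SC, KO SC, WT TTC and KO TTC, so WT SC alone stood high. It was called in the SC pair (ratio 0.408, 0.244 to 0.668; exact adjusted p = 0.0056) and not in the TTC pair (0.843, 0.47 to 1.57; exact adjusted p = 0.88), yet the difference between the pairs was not called either (exact adjusted p = 0.41). Eno2 made up 19.1% (14.5% to 24.4%) of Eno1 and Eno2 reads in WT SC and 10.7% (7.1% to 15.3%), 10.5% (6.4% to 16.1%) and 11% (7.9% to 14.8%) in KO SC, WT TTC and KO TTC. Eno1, the common form, had 101.1, 81.2, 104.8 and 84.0 RPM, with KO over WT ratios of 0.803 and 0.802 that were not called (exact adjusted p = 0.17 in both pairs). Its near-identical copy Eno1b was listed at similar levels (103.5, 78.6, 93.1 and 85.3 RPM), and how reads that fit both were placed is not given, so the level of either is uncertain. Processed copies are also known for Gapdh, Pgk1, Tpi1, Pgam1, Aldoa and Ldha.

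At the fork after pyruvate, lactate dehydrogenase showed no call as deposited. Ldha, the subunit prominent in glycolytic tissue, had 37.2, 36.3, 53.4 and 36.4 RPM in WT SC, KO SC, WT TTC and KO TTC, so WT TTC stood above the other libraries. Ldhb, the subunit prominent in oxidative tissue, had 31.5, 34.4, 45.9 and 48.1 RPM and was higher in both TTC libraries. Within KO its TTC over SC ratio was 1.40 (1.08 to 1.82; exact adjusted p = 0.055). That difference was called when tested among transcripts of at least 5 RPM (exact adjusted p = 0.0396). The Ldhb share of the reads was 45.8%, 48.7% and 46.2% in WT SC, KO SC and WT TTC and 57.0% in KO TTC (51.2% to 62.6%), an interval that met those of the other libraries.

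The pyruvate dehydrogenase complex, which commits pyruvate to the TCA cycle, had 0 members called between KO and WT in either pair by the exact test. Its core E1 subunits did not run together: Pdhb (E1 beta) had 8.59, 10.1, 11.6 and 22.2 RPM, and Pdha1 (E1 alpha) 9.54, 11.2, 6.85 and 7.11 RPM. Pdhb was called higher in KO TTC than KO SC (ratio 2.19, 1.40 to 3.53; exact adjusted p = 0.0037). Pdhx, which holds the E3 subunit in the complex, had 6.2, 2.99, 4.11 and 8.75 RPM and was called in the same comparison on 8 and 32 reads (ratio 2.92, 1.32 to 7.35; exact adjusted p = 0.028). With both other scalings the Pdhx call was lost (exact adjusted p = 0.0606 and 0.0786). Dlat (E2) had 9.06, 8.98, 15.7 and 15.9 RPM, higher in both TTC libraries without a call. Dld, the E3 subunit shared with 2-oxoglutarate dehydrogenase, had 5.72, 2.62, 9.59 and 4.65 RPM, and apart from Ckb it was the 1 member whose KO libraries lay below both WT libraries with a ratio beyond 1.5-fold in each pair, on 7 to 17 reads and with no call. Pcx, which makes oxaloacetate from pyruvate, had 0 to 5 reads.

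In the mitochondrial TCA cycle, 1 of 12 members was called as KO against WT in the SC pair, and 0 in the other pair. That member was Cs (citrate synthase, which opens the cycle), at 101.6, 74.4, 117.1 and 107.5 RPM. KO SC was the low library, with a ratio to WT SC of 0.733 (0.601 to 0.893; exact adjusted p = 0.03) and a ratio of KO TTC to KO SC of 1.44 (1.21 to 1.72; exact adjusted p = 0.00046), whereas the KO over WT ratio of the TTC pair was 0.918 (0.765 to 1.11). Scaled to the listed sites or by median-of-ratios, the SC pair call was lost (exact adjusted p = 0.0901 and 0.197).

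The NAD-linked isocitrate dehydrogenase carries out the next oxidation. For Idh3a, its catalytic subunit, KO SC was the highest library, at 149.6 RPM against 121.7, 108.2 and 101.2 RPM in WT SC, WT TTC and KO TTC. It was called lower in KO TTC than KO SC (ratio 0.676, 0.586 to 0.781; exact adjusted p = 3.5e-06), and its SC pair ratio of 1.23 (1.05 to 1.44) was called only with the other scalings (exact adjusted p = 0.103 as deposited, 0.0242 and 0.00479 with those scalings). Idh3b, a regulatory subunit, had 13.8, 24.7, 11.6 and 17.8 RPM, both KO libraries above both WT libraries, with no call as deposited (exact adjusted p = 0.095 and 0.46; 0.0337 in the SC pair with median-of-ratios scaling). Idh3g, the other regulatory subunit, stayed between 5.61 and 7.53 RPM. Within the enzyme, Idh3a made up 80.4% to 85.9% of its reads and Idh3b 9.1% to 14.1% over the 4 libraries.

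Further round the cycle, Ogdh (2-oxoglutarate dehydrogenase E1) had 15.7, 12, 10.3 and 7.39 RPM, and its relative Ogdhl 0 to 3 reads. Dlst, the E2 subunit of the same complex, had 30.1, 35.5, 54.1 and 36.4 RPM. WT TTC stood above the other libraries, with a TTC over SC ratio of 1.80 in WT (1.28 to 2.55; exact adjusted p = 0.0104). Sucla2 (ATP-forming succinyl-CoA ligase) had 56.3, 53.9, 41.1 and 52.2 RPM, while Suclg1, the alpha subunit it pairs with, had 1 to 7 reads. Fh1 (fumarase) had 24.3, 19.1, 29.4 and 21.9 RPM, lower in both KO libraries without a call. Mdh2 (mitochondrial malate dehydrogenase) had 62.5, 52.7, 76.7 and 77.7 RPM and was called higher in KO TTC than KO SC (ratio 1.47, 1.20 to 1.82; exact adjusted p = 0.0023), a call lost with median-of-ratios scaling (exact adjusted p = 0.0596).

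Mdh1 (chr11:21556692-21571934), the cytosolic malate dehydrogenase of the malate-aspartate shuttle, which carries the electrons of cytosolic NADH into mitochondria, was the member on which the pairs differed. It had 61.1, 42.3, 55.5 and 89.2 RPM in WT SC, KO SC, WT TTC and KO TTC. KO was the lower library in the SC pair and the higher in the TTC pair. The ratio of KO to WT was 0.692 in the SC pair (0.533 to 0.899; exact adjusted p = 0.066) and 1.61 in the TTC pair (1.26 to 2.08; exact adjusted p = 0.00298). Tested among transcripts of at least 5 RPM, the SC pair difference was called too (exact adjusted p = 0.0491). The 2 ratios differed by 2.32 times, and of the 41 members Mdh1 was the 1 called for this difference (exact adjusted p = 0.000403), beside 3.75% of 4848 tested transcripts. TTC over SC was 2.11 in KO (1.70 to 2.64; exact adjusted p = 1.9e-10) and 0.908 in WT (0.679 to 1.21; exact adjusted p = 0.799). Mdh1 made up 49.4%, 44.5%, 42.0% and 53.4% of malate dehydrogenase reads in WT SC, KO SC, WT TTC and KO TTC. The intervals of KO TTC (49.4% to 57.5%) and WT TTC (34.9% to 49.3%) did not meet, and those of KO SC (38.3% to 50.8%) and WT SC (43.2% to 55.7%) overlapped.

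The other cytosolic or NADP-linked forms were lower in level. Idh1 (cytosolic, NADP-linked isocitrate dehydrogenase) had 21.9, 12, 24.0 and 21.1 RPM, with KO SC the low library, and was called higher in KO TTC than KO SC (ratio 1.76, 1.15 to 2.75; exact adjusted p = 0.043), a call lost with both other scalings (exact adjusted p = 0.133 and 0.159). Idh2, its mitochondrial counterpart, had 2.74 to 5.24 RPM, and Aco1, the cytosolic aconitase that doubles as iron regulatory protein, 2.99 to 3.42 RPM.

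**Figure D3:**
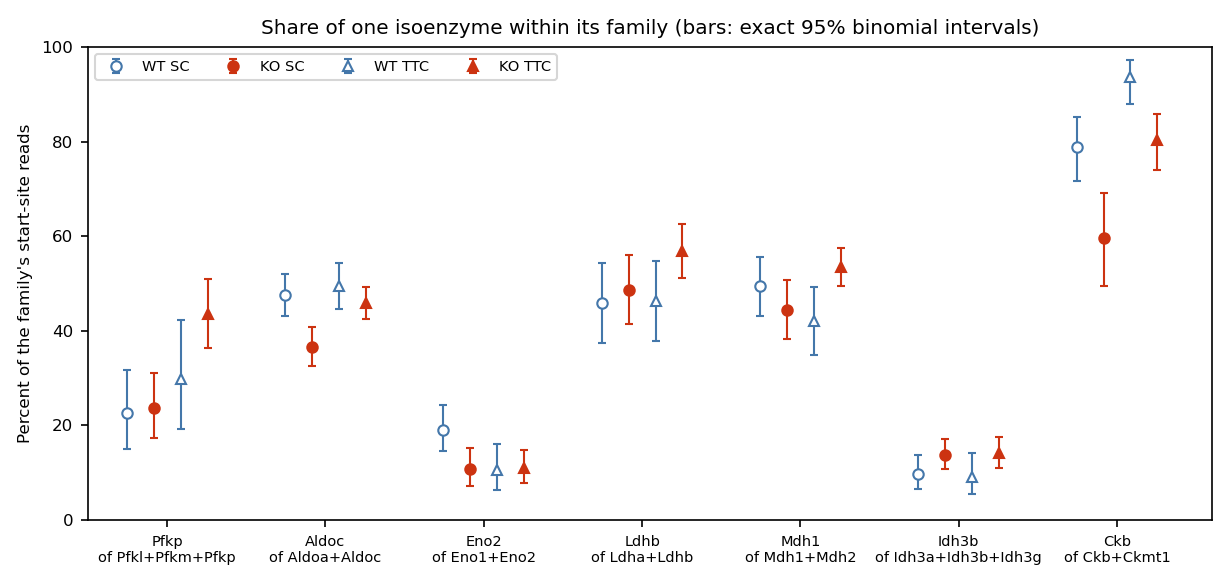
Percent of a family's start-site reads (vertical axis) that came from the named isoenzyme, for 7 families (horizontal axis) in the 4 libraries. Open blue symbols are WT, filled red symbols KO, circles SC and triangles TTC. Bars are exact 95% binomial intervals and cover counting error only. The Ckb share is lower in the KO library of each pair, and the Eno2 share is highest in WT SC.

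Comparing the codes within each genotype shares every library with the comparisons above, so these calls add no independent evidence. In the KO libraries, 10 members were called higher in TTC (Aldoc, Ckb, Cs, Idh1, Mdh1, Mdh2, Pdhb, Pdhx, Pgam1 and Pkm) and 2 lower (Idh3a and Pfkm), where 10.9% of 5623 tested transcripts were higher and 5.71% lower. At 5 RPM and above, 16.3% of all transcripts were called higher, beside 30.3% of the 33 members, which had the higher median levels at this cut. In the WT libraries, 3 members were called higher in TTC (Dlst, Pgam1 and Pkm) and 0 lower, where 7.02% of 5345 tested transcripts were higher and 3.82% lower. At 5 RPM and above, 9.20% of all transcripts were called higher in this comparison, close to the 9.09% of the 33 members. Of those named, Pgam1 and Pkm were called within both genotypes. By the titles, TTC over SC is scrambled over Ttc3 RNAi, and by the letters of the codes it is the reverse. Median-of-ratios scaling left 6 members called higher within KO, without Aldoc, Idh1, Mdh2 and Pdhx, and turned the split over the whole table from 613 higher and 321 lower to 388 higher and 420 lower. The KO libraries held 2673112 and 3655827 reads and the WT libraries 2096153 and 1460425, and the numbers of calls were not tested against each other.

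Setting the KO libraries against the WT libraries as groups, 12 members had both KO libraries below both WT libraries (among them Aco1, Aldoc, Ckb, Dld, Eno1, Eno2, Fh1, Idh1, Ldha, Pfkl and Pgk1), where 14.0% of all 6352 transcripts did so. Both KO libraries lay above both WT libraries for 3 members (Idh3b, Ogdhl and Pfkp), beside 12.4% of all transcripts. At 5 RPM and above the same was true of 11 members below and 2 above, beside 20.4% and 13.1% of transcripts. Over all 41 members, scaling to the listed sites gave 10 below and 3 above. Median-of-ratios factors gave 9 below and 4 above. The SC pair and the TTC pair share no library, and over the 41 members their log2 differences had a Pearson correlation of 0.29 and a Spearman correlation of 0.37, beside 0.08 and 0.09 over all transcripts, where low counts add scatter. At 5 RPM and above, Pearson's value was 0.41 for 33 members and 0.19 for 2314 transcripts. The members were lower in KO in both pairs in 19 cases, higher in both in 9 and opposite in 11, beside 22.9%, 19.2% and 34.2% of all transcripts. At 5 RPM and above these shares were 51.5%, 21.2% and 27.3% of the members and 34.9%, 22.6% and 41.8% of all transcripts. The members still had the higher median levels at this cut, so these comparisons were not matched for depth.

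**Figure D4:**
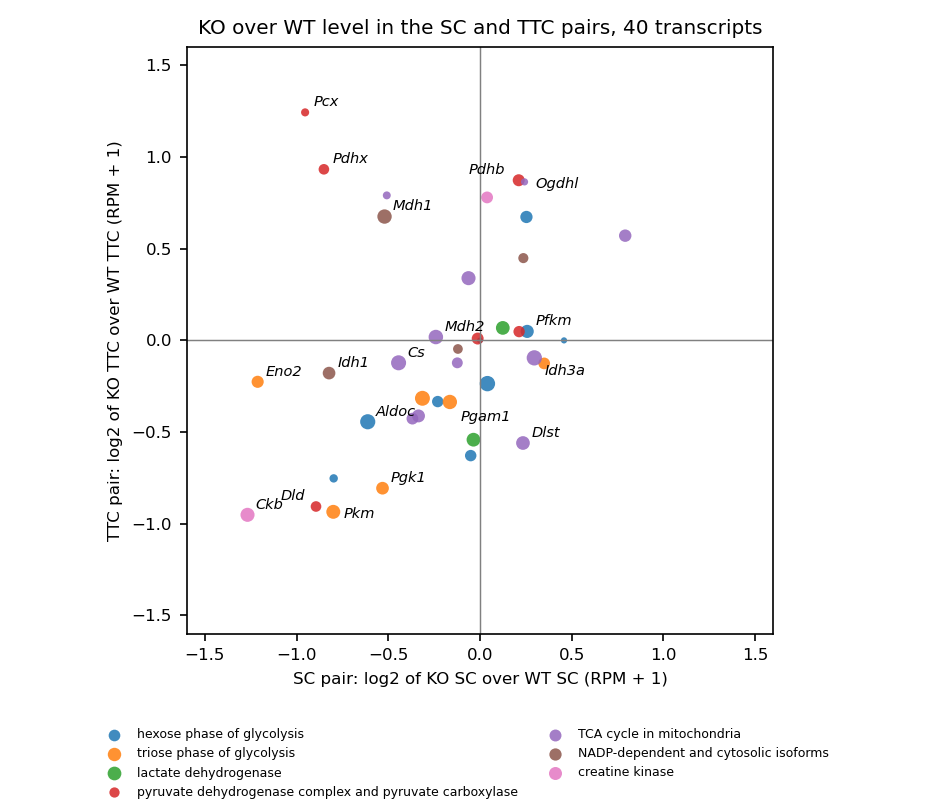
Log2 ratio of KO over WT (1 RPM added) for the SC pair (horizontal axis) and the TTC pair (vertical axis) for 40 of the 41 transcripts, coloured by role, with larger points for higher mean levels. Ckb, Pkm and Dld lie at the lower left, and Mdh1, Pdhx and Pcx at the upper left, lower in the SC pair and higher in the TTC pair. Pcx rests on 0 to 5 reads.

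Of 56 further genes of energy metabolism listed by role, 42 were in the table. In the SC pair, 5 of them were called lower in KO and 0 higher, where 4.74% of all tested transcripts were lower and 2.63% higher. Calls of these further genes were made with whole-library totals only. They were not recomputed with the other scalings, which changed the split of calls over the whole table. Got1, the cytosolic aspartate aminotransferase of the same shuttle as Mdh1, had 158.9, 126.8, 154.1 and 109.4 RPM in WT SC, KO SC, WT TTC and KO TTC. It was called lower in both pairs (exact adjusted p = 0.048 and 0.0024), in the SC pair only just under the threshold. Me1 (malic enzyme, which makes NADPH from malate) had 12.9, 2.24, 12.3 and 5.47 RPM (exact adjusted p = 0.00062 in the SC pair), and Taldo1 (transaldolase, of the pentose phosphate path) 35.8, 16.1, 26.7 and 32.0 RPM (exact adjusted p = 0.0012). Sdhb, the iron-sulphur subunit of succinate dehydrogenase, had 42.9, 22.1, 52.7 and 43.5 RPM and was called in the SC pair (exact adjusted p = 0.0025), while Sdha, Sdhc and Sdhd were not called. The fifth was Rpe, of the pentose phosphate path, with 15 reads in WT SC and 0 in the other libraries. In the TTC pair, Got1 and Got2 were called lower and G6pdx higher, the latter with 30 reads in KO TTC and 0 in the other libraries. Of all tested transcripts, 4.41% were lower and 3.14% higher in that pair. Got2, the mitochondrial partner of Got1, had 28.1, 21.7, 63.7 and 40.2 RPM, and like Pkm and Pgam1 it was called higher in TTC within KO and within WT (exact adjusted p = 0.00092 and 5.4e-05).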

How the data were processed

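Ribosome footprints at translation start sites were measured in 4 libraries of harringtonine-treated primary mouse cortical neurons. The authors deposited RPM values for 6352 transcripts, scaled to each whole library, and bedtools, SAMtools and Bowtie, without versions, and the build GRCm38/mm10 are named in the submitters' processing notes. The counted window, annotation, choice of transcripts and treatment of reads with several matches are not given in the sources used here. All deposited RPM values (100% within 1e-06) were whole multiples of 1 read, so reads were recovered. Symbols came from the list of ranked transcripts published with the study, after mending 38 identifiers and 3 member symbols, and gene positions from RefSeq (GRCm38.p6). Members and gene lists were chosen with earlier results of these data known.

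Reads of 2 libraries were compared by an exact binomial test (two-sided, conditional on their sum), and KO over WT ratios with an exact test of the ratio of ratios, both adjusted by Benjamini-Hochberg over all transcripts with reads (scipy 1.17.1). edgeR 4.0.16 (quasi-likelihood, genotype and code) was an alternative. No sample was left out, values of 1 member and 2 markers are not reported here, and 3 reads equal 0.821 to 2.05 RPM. On simulated data with known answers, 28% of the 2-fold changes were called in the SC pair (5205 transcripts) and 37% in the TTC pair (5316), and for 4-fold changes 83% and 86%. These simulations held counting error only, and the changed transcripts had at least 5 RPM. They do not show how the exact test behaves with scatter beyond counting error in the real libraries. The genotype term of edgeR, on simulated data with added scatter, called 18.4% of 2-fold and 84.2% of 4-fold changes among transcripts its filter kept. That scatter was the same fixed value for every transcript and was not estimated from these libraries. These shares therefore do not show what the fit can call in the real data. Values in all 4 libraries are given for every member called in any comparison, for those with both KO libraries on one side of both WT libraries and at least 1.5-fold in both pairs, and for the top member of each role, and others by role. Alternatives were scaling to the listed sites, median-of-ratios factors, a mean of at least 5 RPM, pseudocounts of 0.1 and 3 RPM, and leaving out members with copies in the genome or, chosen after seeing the data, the 3 mended members.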

Additional observations from a re-analysis of the deposited data

Results flagged for a closer look

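The KO over WT ratio of Mdh1 differed between the SC and TTC pairs, which is what brought it up for a closer look (exact test of the ratio of ratios, adjusted p = 0.000403). Mdh1 had 61.1 RPM in WT SC and 42.3 in KO SC, a ratio of 0.692, against 55.5 in WT TTC and 89.2 in KO TTC, a ratio of 1.61. The exact adjusted p ranged from 0.000398 to 0.00127 over the scalings and the filter tried. With 1 library in each group, the difference is one between libraries, and a single library, KO TTC, was the highest of the 4. The KO SC library of the pair is also the one with 37 Ltn1 reads. Whether either library accounts for the difference was not tested.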

How the results depend on the processing

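Counts of members called depended on the scaling. In the SC pair, 3 rather than 5 members were lower in KO with median-of-ratios factors, and 1 and 2 rather than 0 were higher when scaled to the sum of the listed sites and with median-of-ratios factors. Between the KO libraries, 6 rather than 10 members were higher in TTC with median-of-ratios factors. Between the WT libraries, 1 member rather than 0 (Ckmt1) was lower in TTC with the listed sum, median-of-ratios factors or a mean of at least 5 RPM. edgeR with genotype and code, with whole-library totals or TMM, called 0 members lower in place of 5 and 3, and 0 higher in place of 1. The 2 scalings set KO SC at 0.933 and 0.909 of its whole-library total, and the cause was not tested. The other 62 recomputed main values stayed within their limits, and no called value changed sign. Counted over comparisons and settings, the 14 members with a call lost 10 calls and gained 3. Over the whole table, testing only transcripts of at least 5 RPM gave 70 calls in place of 141 higher in the SC pair, 150 in place of 240 lower and 108 in place of 171 higher in the TTC pair, 154 in place of 321 lower between the KO libraries and 239 in place of 375 higher between the WT libraries, and edgeR called 0. Without the 8 members with copies in the genome, the TTC pair median went from -0.12 to 0.

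Exchanging the RNAi labels, as the codes spell them, changes no value and turns only the direction of RNAi over scrambled. With 1 library per group there was no replicate to leave out or to pair by number, and the edgeR fit, with code as a term, set KO against WT within each code. At 3 reads or fewer, 4, 5, 6 and 4 members in WT SC, KO SC, WT TTC and KO TTC were too shallow to compare.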
